A study of Mus musculus with 6 samples.

Results

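The insulin-like growth factor (IGF) axis was examined in skeletal muscle stem cells, the resident progenitors that rebuild muscle fibres. It was taken as 9 named genes: the ligands Igf1 and Igf2, the receptor Igf1r, and the binding proteins Igfbp2, Igfbp3, Igfbp4, Igfbp5, Igfbp6 and Igfbp7. The members were chosen by gene symbol, with earlier results of these data known. Of the 9, 8 had values among the 12067 genes of the deposited expression table, and Igfbp2 was not analysed here. All 8 passed the filter on low values.

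Male C57BL/6 mice gave the limb muscle, from which cells that carried VCAM and lacked CD45, CD31 and Sca1 were sorted. A second sort used 5 uM ThiolTracker Violet, a fluorescent dye for reduced glutathione (GSH, the main thiol antioxidant of the cell). There were 3 groups of 2 libraries. The old GSH-low and old GSH-high groups were fractions of cells from mice of 23 months, and each library pooled 2 animals. The young group held all stained cells from mice of 4 months, with 1 animal per library, and its label gives the glutathione status as high. The comparisons ask how cells of low and high GSH differ in old muscle, and how each old fraction differs from young cells. Whether an old GSH-low and an old GSH-high library came from the same animals is not stated, and the young cells were not split by GSH.

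The ligands IGF1 and IGF2 are secreted and bind the receptor tyrosine kinase IGF1R, which signals through adaptor proteins to PI3K, AKT and mTORC1 and holds the FoxO transcription factors out of the nucleus. In muscle, both ligands are known to promote growth and the proliferation and differentiation of myoblasts. Binding proteins hold the ligands outside the cell, and proteases that cut the binding proteins release them again.

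Polyadenylated RNA was read as single ends of 150 bp. Reads recovered from the deposited RPKM values (reads per kilobase of gene length and scaled to library size) totalled 46.95 M to 50.66 M in the old GSH-low libraries, 60.7 M to 68.72 M in the old GSH-high libraries and 60.0 M to 63.06 M in the young libraries. Single members rested on 247 to 34806 reads per library, the fewest being those of Igf2. Each p-value below is a Benjamini-Hochberg adjusted p from limma over the 10609 genes kept, and a gene is said to have changed where it was under 0.05. Fold changes were fitted on the log2(RPKM + 1) scale, which understates changes of genes with low RPKM. With 2 libraries a group, the p-values measure only the spread between these libraries. In bulk RNA, fewer cells of a type and less RNA per cell cannot be told apart.

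The markers of other cell types moved with the groups in these libraries. The 12 tenocyte markers (genes of tendon cells), all listed, summed to 2758 to 3162 RPKM in old GSH-low, 680.2 to 855.5 RPKM in old GSH-high and 48.1 to 48.5 RPKM in young libraries. All 18 listed fibro-adipogenic progenitor markers (connective tissue progenitors of muscle) summed to 1952 to 2085 RPKM in old GSH-low, 1384 to 1422 RPKM in old GSH-high and 1142 to 1247 RPKM in young libraries. A few genes weigh most in such sums. Between the old fractions the median log2 change of these 18 markers was 0.02, with 5 higher and 2 lower in old GSH-low cells. Of the 16 endothelial markers, 15 were listed, and they summed to 32.3 to 40.1 RPKM in old GSH-low, 110.5 to 111.2 RPKM in old GSH-high and 50.3 to 59.5 RPKM in young libraries. All 14 satellite cell markers were listed, and they summed to 3251 to 3403 RPKM in old GSH-low, 3736 to 3905 RPKM in old GSH-high and 4142 to 4325 RPKM in young libraries. Their median log2 change was -0.14 between the old fractions, -0.03 in old GSH-high and -0.08 in old GSH-low against young cells. Of the 14, 1 rose and 0 fell between the old fractions, beside 3.69% and 1.69% of all genes. In old GSH-high against young cells 0 rose and 4 fell, beside 15.1% and 13.7%. In old GSH-low against young cells 2 rose and 5 fell, beside 18.1% and 18.7%. Pax7, the transcription factor that defines satellite cells, averaged 11.9 RPKM in old GSH-low, 8.37 RPKM in old GSH-high and 7.79 RPKM in young cells. Pax7 was the 1 satellite cell marker that changed between the old fractions, and others had other patterns. Calcr averaged 21.4 RPKM in old GSH-low, 19.2 RPKM in old GSH-high and 43.4 RPKM in young cells. In the same order of groups, the means were 612, 818 and 681 RPKM for Myod1 and 77.5, 84.0 and 77.6 RPKM for Myf5. Ptprc, which encodes the CD45 antigen, was below the filter on low values. Of 13 macrophage markers 9 were listed, with sums of 55.7 to 62.1 RPKM in old GSH-low, 46.4 to 59.8 RPKM in old GSH-high and 10.1 to 12.2 RPKM in young libraries. Several members are also made by connective tissue cells, and the part of these markers in the results below was not tested.

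**Figure D1:**
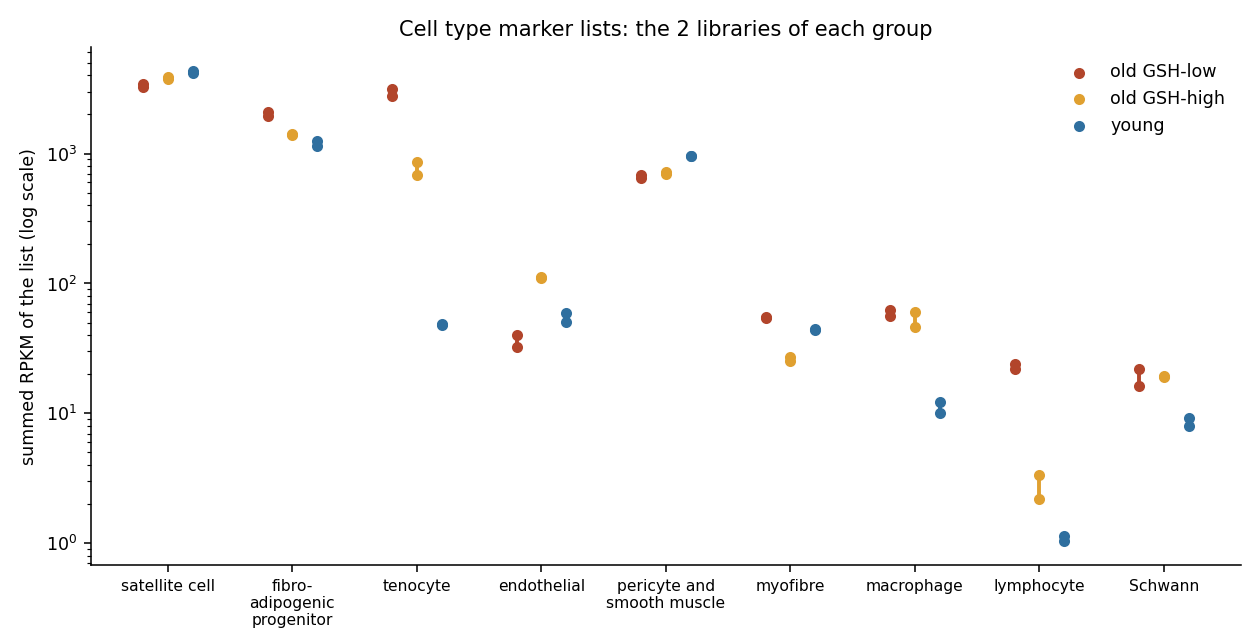
Summed RPKM (log scale) of each cell type marker list in the libraries of old GSH-low, old GSH-high and young muscle stem cells; each pair of points joined by a line is the 2 libraries of a group. The tenocyte sums run from 2758 to 3162 RPKM in old GSH-low libraries and from 48.1 to 48.5 RPKM in young libraries, while the satellite cell sums lie between 3251 and 4325 RPKM in all 6.

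Igf1, Igfbp4 and Igfbp6 showed 3 different patterns over the groups: highest in young cells, highest in old GSH-high cells and highest in old GSH-low cells. Their promoter windows are shown for this reason, as 300 bases from RefSeq on GRCm38.p6, running from 250 bases before to 50 bases after a start site, 5′ to 3′ on the gene's strand. Each lies on the plus strand: Igf1 at chr10:87860861-87861160, Igfbp4 at chr11:99040994-99041293 and Igfbp6 at chr15:102143936-102144235. The Igf1 window starts from a RefSeq start inside the GENCODE gene, and the Igfbp6 window ends before the GENCODE gene start at 102144362. Capitals mark matches on either strand. The motifs searched were the TATA box, TATAAA, and the GC box, GGGCGG. The E-box, CANNTG, is read by basic helix-loop-helix factors. The AP-1 motif, TGANTCA, is bound by Fos and Jun proteins.
Igf1: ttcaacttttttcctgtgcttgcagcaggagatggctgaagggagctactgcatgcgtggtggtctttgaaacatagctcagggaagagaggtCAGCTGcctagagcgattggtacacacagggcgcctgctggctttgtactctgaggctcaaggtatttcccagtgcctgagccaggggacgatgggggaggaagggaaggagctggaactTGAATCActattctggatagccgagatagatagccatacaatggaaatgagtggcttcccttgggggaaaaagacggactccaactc
Igfbp4: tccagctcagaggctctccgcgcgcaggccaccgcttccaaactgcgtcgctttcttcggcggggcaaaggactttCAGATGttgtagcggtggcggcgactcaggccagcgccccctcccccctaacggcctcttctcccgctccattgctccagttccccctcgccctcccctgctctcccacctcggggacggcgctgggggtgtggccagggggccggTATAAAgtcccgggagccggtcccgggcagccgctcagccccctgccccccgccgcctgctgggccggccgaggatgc
Igfbp6: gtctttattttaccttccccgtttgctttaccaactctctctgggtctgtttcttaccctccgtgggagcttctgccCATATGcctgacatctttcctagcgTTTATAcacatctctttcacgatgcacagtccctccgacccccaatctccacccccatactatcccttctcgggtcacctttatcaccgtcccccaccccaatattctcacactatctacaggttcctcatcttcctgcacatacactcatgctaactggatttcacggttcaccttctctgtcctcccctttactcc
The Igf1 window held 1 E-box and 1 AP-1 match, the Igfbp4 window 1 TATA box and 1 E-box, and the Igfbp6 window 1 TATA box on the reverse strand and 1 E-box. Among 32851 promoter windows of the same length, 13.6% held the TATA box, 35.7% the GC box, 72.3% the E-box and 7.81% the AP-1 motif. The Igfbp7 window, by contrast, held 4 GC boxes and none of the other motifs. The matches describe letters in these windows only.

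The ligands differed in opposite directions between each old fraction and the unsplit young cells, with Igf1 lower and Igf2 higher in the old fractions. Igf1, which lies on chromosome 10 (87858265 to 87937042, plus strand, GRCm38), was at 3.10 and 2.56 RPKM in old GSH-low cells, 2.01 and 2.12 RPKM in old GSH-high cells and 5.20 and 5.33 RPKM in young cells. Both old groups lay below the young libraries without overlap, and the old GSH-low libraries lay above the old GSH-high ones. Igf1 fell in old GSH-high cells relative to young cells, with a log2 change of -1.03 ± 0.10 (SE; adjusted p = 0.000151), and averaged 2.06 ± 0.0797 RPKM in old GSH-high and 5.26 ± 0.0944 RPKM in young cells (SD, n = 2 each). It also fell in old GSH-low cells relative to young cells, by 0.71 ± 0.10 on the log2 scale (adjusted p = 0.000833). The log2 change of 0.32 ± 0.10 between the old fractions did not pass the test (adjusted p = 0.122), with a ratio of mean RPKM of 1.37.

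Igf2, the ligand made by differentiating myoblasts and by many fetal tissues, lies in an imprinted region of chromosome 7 (142650766 to 142666816, minus strand). It was at 2.15 and 2.58 RPKM in old GSH-low cells, 2.27 and 2.34 RPKM in old GSH-high cells and 0.842 and 0.735 RPKM in young cells. The old libraries overlapped with each other and lay above both young ones. Igf2 rose in old GSH-high cells relative to young cells, with a log2 change of 0.89 ± 0.10 (adjusted p = 0.000398) and a ratio of mean RPKM of 2.93. The values for old GSH-low against young cells were 0.91 ± 0.10 (adjusted p = 0.000258) and a ratio of 2.998. With a pseudocount of 0.1 in place of 1 these log2 changes were 1.44 for old GSH-high and 1.47 for old GSH-low cells. Its log2 change between the old fractions was 0.02 ± 0.10 (adjusted p = 0.939).

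The ligand mix also differed between old and young cells. Igf1 and Igf2 summed to 5.25 and 5.14 RPKM in old GSH-low cells, 4.28 and 4.46 RPKM in old GSH-high cells and 6.04 and 6.07 RPKM in young cells. The ratio of Igf1 to Igf2 RPKM was 1.44 and 0.992 in old GSH-low cells, 0.883 and 0.904 in old GSH-high cells, and 6.17 and 7.26 in young cells. Igf2 thus made up 40.9% and 50.2% of the summed ligand RPKM in old GSH-low cells, 53.1% and 52.5% in old GSH-high cells, and 13.9% and 12.1% in young cells. Igf1 overlaps the antisense gene Igf1os, and Igf2 overlaps Igf2os on the other strand and Gm49394 and Mir483. The strand setting of the counting is not stated, so that reads of these genes cannot be told apart.

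Igf1r, the receptor (chromosome 7, 67952827 to 68233668, plus strand), varied least among the members. It was at 7.02 and 6.95 RPKM in old GSH-low, 6.60 and 7.06 RPKM in old GSH-high and 5.87 and 5.75 RPKM in young cells. Every old library lay above both young ones, yet Igf1r passed the test in no comparison of the fit over 6 libraries. Its log2 change was 0.23 ± 0.08 in old GSH-low against young cells (adjusted p = 0.0639), 0.20 ± 0.08 in old GSH-high against young cells (adjusted p = 0.110) and 0.03 ± 0.08 between the old fractions (adjusted p = 0.898). The old GSH-low change against young cells passed with scaling by library size only (log2 change 0.29, adjusted p = 0.0301) and with limma-voom on the recovered reads (0.26, adjusted p = 0.0356).

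**Figure D2:**
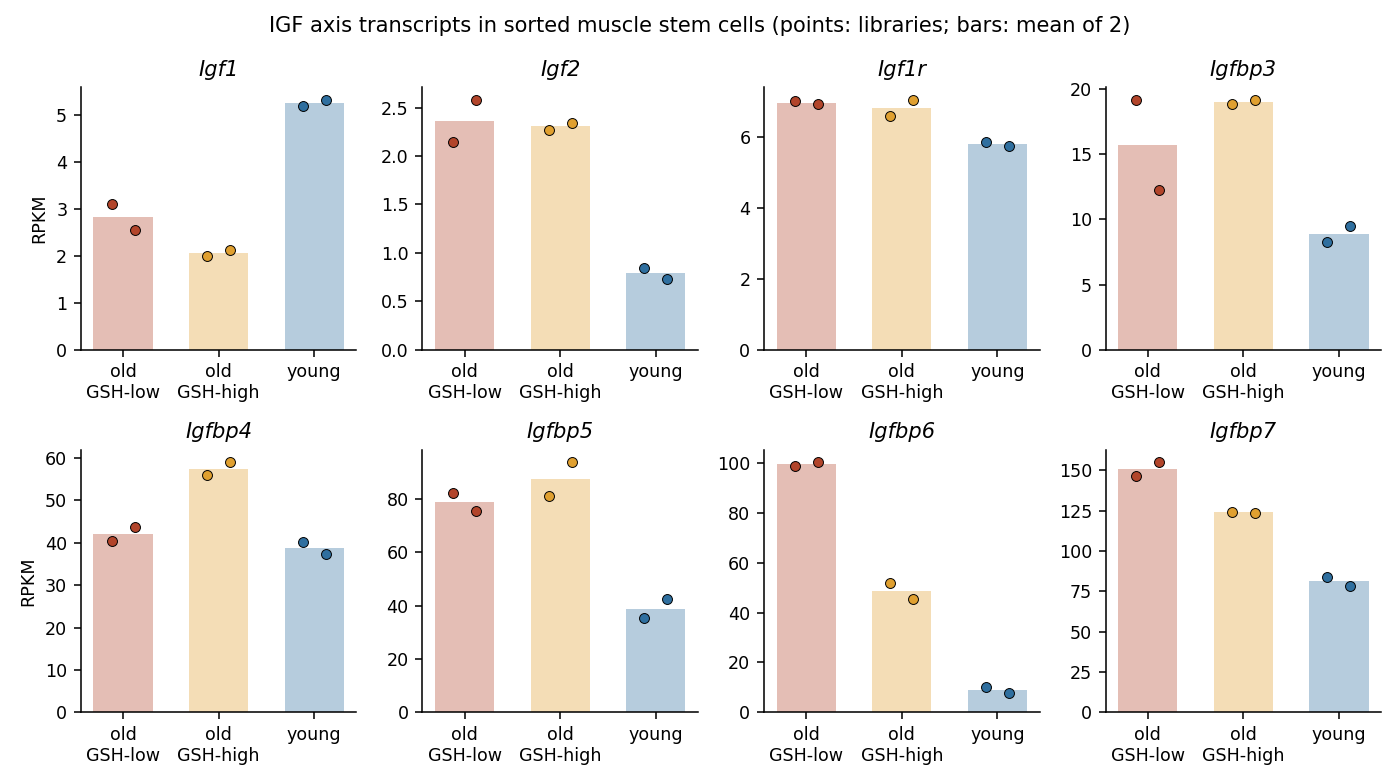
RPKM of the 8 measured members in the 6 libraries, grouped as old GSH-low, old GSH-high and young muscle stem cells; points are libraries and bars are means of 2. Igf1 is higher in the young libraries, Igfbp4 is highest in the old GSH-high libraries, and Igfbp6 is at 98.8 and 100.3 RPKM in old GSH-low, 51.7 and 45.5 RPKM in old GSH-high and 10.3 and 7.90 RPKM in young libraries.

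Igfbp6 had the largest change of the members in all 3 comparisons. It encodes a binding protein that prefers IGF2 over IGF1 and lies on chromosome 15 (102144362 to 102149511, plus strand). It was at 98.8 and 100.3 RPKM in old GSH-low cells, 51.7 and 45.5 RPKM in old GSH-high cells and 10.3 and 7.90 RPKM in young cells. The 3 groups did not overlap, and both old GSH-low libraries stood highest. Igfbp6 rose in old GSH-low relative to old GSH-high cells, with a log2 change of 1.02 ± 0.12 (adjusted p = 0.00136) and means of 99.6 ± 1.07 RPKM in old GSH-low cells and 48.6 ± 4.40 RPKM in old GSH-high cells (SD, n = 2 each). It rose in old GSH-high relative to young cells, with a log2 change of 2.30 ± 0.12 (adjusted p = 4.55e-06) and a ratio of mean RPKM of 5.34. In old GSH-low against young cells the log2 change was 3.33 ± 0.12 (adjusted p = 4.02e-07) and the ratio of mean RPKM 10.9. By absolute log2 change, Igfbp6 stood at place 171 of 10609 genes between the old fractions, at place 43 in old GSH-high against young cells and at place 34 in old GSH-low against young cells. The tenocyte markers had the same order of groups. All 12 of them rose in old GSH-low relative to old GSH-high cells, with a median log2 change of 1.82, beside 3.69% of all genes. The part of such cells in the Igfbp6 values was not tested.

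Igfbp4 was highest in old GSH-high cells. It encodes a binding protein that mostly restrains IGF action until it is cleaved, and lies on chromosome 11 (99041244 to 99054392, plus strand). It was at 40.3 and 43.6 RPKM in old GSH-low cells, 56.0 and 59.0 RPKM in old GSH-high cells and 40.1 and 37.4 RPKM in young cells. Both old GSH-high libraries lay above the other 4. Igfbp4 fell in old GSH-low relative to old GSH-high cells, with a log2 change of -0.44 ± 0.09 (adjusted p = 0.0184), and rose in old GSH-high relative to young cells, with a log2 change of 0.56 ± 0.09 (adjusted p = 0.0017). In old GSH-low against young cells the log2 change was 0.11 ± 0.09 (adjusted p = 0.331). The call between the old fractions ended when any 1 of the 4 old libraries was left out, with adjusted p from 0.0656 to 0.198. Endothelial markers were likewise highest in old GSH-high cells. Of the 15 tested, 13 were above old GSH-low cells by the test and 14 above young cells, beside 1.69% and 15.1% of all genes. Their part in the Igfbp4 values was not tested.

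Igfbp5 and Igfbp3 were higher in both old fractions than in young cells. Igfbp5, which binds extracellular matrix as well as IGFs, lies on chromosome 1 (72857932 to 72874884, minus strand), 5.46 kb from Igfbp2. It was at 82.1 and 75.6 RPKM in old GSH-low, 81.0 and 93.7 RPKM in old GSH-high and 35.2 and 42.5 RPKM in young cells. The old fractions overlapped, and both were above the young libraries. Igfbp5 rose in old GSH-high relative to young cells, with a log2 change of 1.15 ± 0.11 (adjusted p = 0.000173), and in old GSH-low relative to young cells, with a log2 change of 1.01 ± 0.11 (adjusted p = 0.000259). In old GSH-high against young cells 14 of 18 fibro-adipogenic progenitor markers and 11 of 12 tenocyte markers rose too, beside 15.1% of all genes. So did 14 of 15 tested endothelial and 8 of 8 tested macrophage markers, while of 14 satellite cell markers 0 rose and 4 fell. The part of these cell types in the Igfbp5 values was not tested. The old fractions differed by -0.14 ± 0.11 on the log2 scale (adjusted p = 0.556).

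Igfbp3, the main IGF carrier of blood plasma, lies on chromosome 11 (7206086 to 7213923, minus strand), 3.54 kb from Igfbp1. It was at 19.2 and 12.3 RPKM in old GSH-low, 18.9 and 19.1 RPKM in old GSH-high and 8.30 and 9.46 RPKM in young cells. The old GSH-low libraries differed from each other by a factor of 1.57, the widest gap between replicates among the members, and the old fractions overlapped. Igfbp3 rose in old GSH-high relative to young cells, with a log2 change of 1.02 ± 0.17 (adjusted p = 0.00272), and in old GSH-low relative to young cells, with a log2 change of 0.73 ± 0.17 (adjusted p = 0.0106). The last value was 0.43 without old GSH-low replicate 1 (adjusted p = 0.0452), and the call ended without young replicate 1 (0.65, adjusted p = 0.0504). Between the old fractions the log2 change was -0.29 ± 0.17 (adjusted p = 0.402), and it passed without old GSH-low replicate 1 (-0.59, adjusted p = 0.0443).

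Igfbp7 had the highest RPKM of the members in every library. It encodes a secreted protein with weak affinity for IGFs that is related to the other binding proteins, and lies on chromosome 5 (77349240 to 77408041, minus strand). It was at 146.2 and 154.8 RPKM in old GSH-low, 124.2 and 123.5 RPKM in old GSH-high and 84.0 and 78.0 RPKM in young cells. The 3 groups did not overlap and had the same order as for Igfbp6. Igfbp7 rose in old GSH-high relative to young cells, with a log2 change of 0.61 ± 0.08 (adjusted p = 0.000937), and in old GSH-low relative to young cells, with a log2 change of 0.89 ± 0.08 (adjusted p = 8.76e-05). The log2 change of 0.28 ± 0.08 between the old fractions did not pass (adjusted p = 0.108), and it passed in the fit of the 4 old libraries alone (adjusted p = 0.0442) and without young replicate 1 (adjusted p = 0.0430) or young replicate 2 (adjusted p = 0.0432). Igfbp7 overlaps Polr2b on the other strand.

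Counted as a set, 2 members changed between the old fractions, 7 in old GSH-high against young cells and 6 in old GSH-low against young cells. The members were chosen with earlier results of these data known, so these counts do not test the set. Between the old fractions, 2 of 8 changed, Igfbp6 higher and Igfbp4 lower in old GSH-low cells, where 5.38% of all genes changed (3.69% higher and 1.69% lower). The members' median log2 change was 0.03, against -0.01 over all genes. In 4 of 8 members the fractions did not overlap: 3 were higher in old GSH-low cells, where 25.7% of all genes did the same, and 1 was lower, where 29.8% did.

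In old GSH-high against young cells, 7 of 8 members changed, 6 higher and Igf1 lower, where 28.8% of all genes changed (15.1% higher and 13.7% lower). All 5 binding proteins were among the 6. The members' median log2 change was 0.75, against 0.00 over all genes. All 8 members separated the groups, 7 of them higher, as 32.4% of all genes were, and 1 lower, as 33.7% were. In old GSH-low against young cells, 6 of 8 changed, 5 higher and Igf1 lower, where 36.8% of all genes changed (18.1% higher and 18.7% lower). The members' median log2 change there was 0.81, against -0.02 over all genes, and the exceptions were Igf1r and Igfbp4. Again 7 members were above and 1 below young cells without overlap, where 32.6% and 36.5% of all genes were. Both age comparisons use the same young libraries, and are not independent of each other. Scaling by library size only moved the split of all changed genes to 1935 higher and 1124 lower in old GSH-high against young cells, beside 1598 higher and 1453 lower in the fit reported here.

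**Figure D3:**
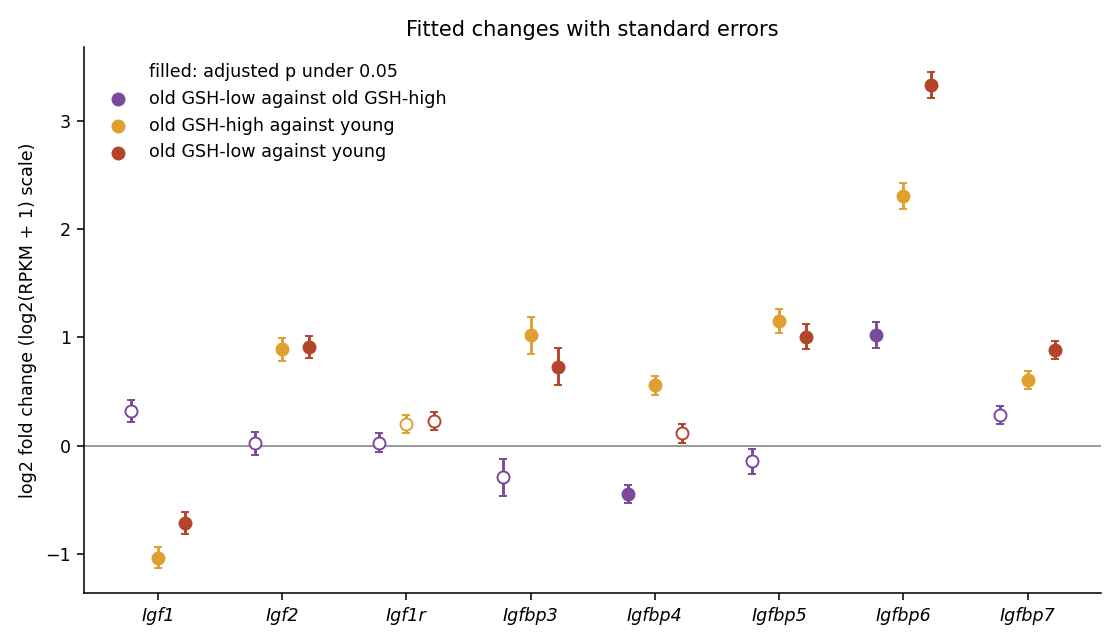
Fitted log2 change on the log2(RPKM + 1) scale, with standard errors, of the 8 members in old GSH-low against old GSH-high, old GSH-high against young and old GSH-low against young cells; filled points have an adjusted p under 0.05. Igfbp6 lies highest in each comparison, at 1.02, 2.30 and 3.33, and Igf1 lies below 0 in both comparisons with young cells.

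The binding protein transcripts were higher in sum in old cells, and their mix differed between the groups. On the RPKM scale, which corrects for gene length, the 5 measured binding proteins summed to 386.7 and 386.6 in old GSH-low cells, 331.7 and 340.8 in old GSH-high cells and 177.9 and 175.4 in young cells. Igfbp6 made up 25.6% and 25.9% of this sum in old GSH-low cells, 15.6% and 13.3% in old GSH-high cells and 5.79% and 4.50% in young cells. Igfbp4 made up 10.4% and 11.3% in old GSH-low cells, 16.9% and 17.3% in old GSH-high cells and 22.5% and 21.3% in young cells, so that its share was lowest where that of Igfbp6 was highest. Igfbp7 held the largest share throughout, at 37.8% and 40.1% in old GSH-low cells, 37.4% and 36.2% in old GSH-high cells and 47.2% and 44.5% in young cells. Igfbp5 held 19.5% to 27.5% and Igfbp3 held 3.17% to 5.69% over all 6 libraries.

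**Figure D4:**
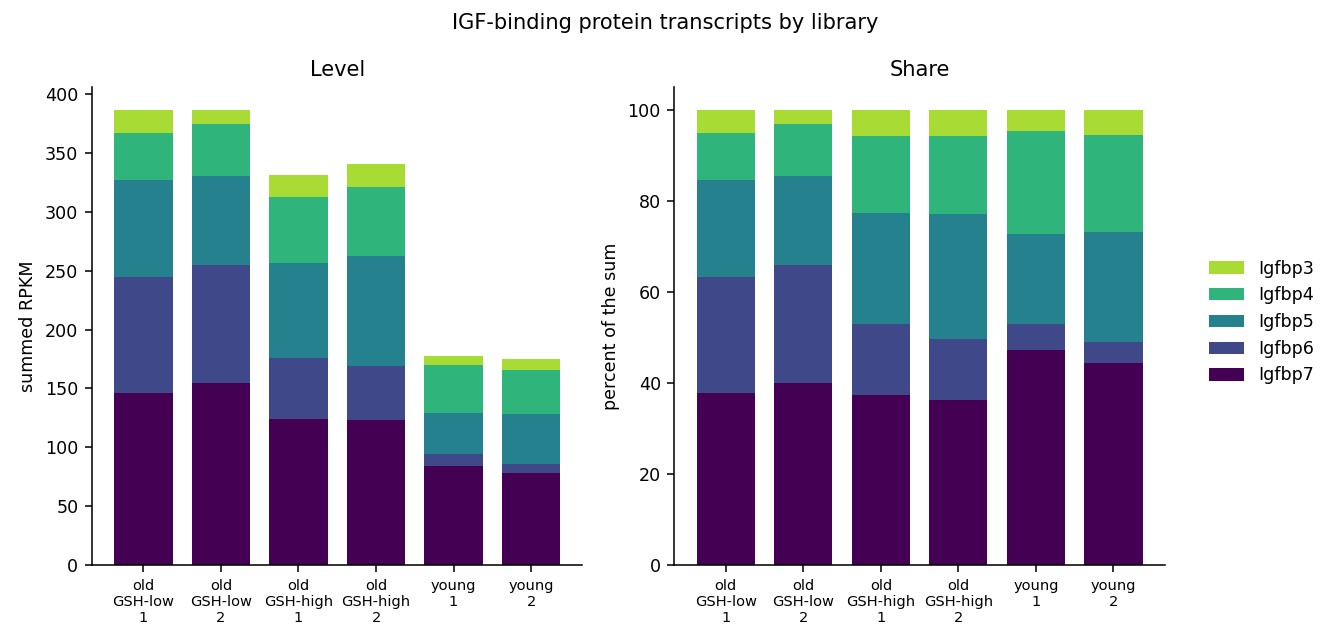
Transcripts of the 5 measured IGF-binding proteins in each library of old GSH-low, old GSH-high and young cells, as stacked RPKM and as percent of their sum. The sum is 386.7 and 386.6 RPKM in old GSH-low libraries and 177.9 and 175.4 RPKM in young libraries, and the Igfbp6 share is 25.6% and 25.9% in old GSH-low and 5.79% and 4.50% in young libraries.

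The order of the members' RPKM levels also differed between groups. In old GSH-low cells the order from high to low was Igfbp7, Igfbp6, Igfbp5, Igfbp4, Igfbp3, Igf1r, Igf1 and Igf2, and only the last pair overlapped. In old GSH-high cells it was Igfbp7, Igfbp5, Igfbp4, Igfbp6, Igfbp3, Igf1r, Igf2 and Igf1, with no overlap between neighbours. In young cells it was Igfbp7, Igfbp5, Igfbp4, Igfbp6, Igfbp3, Igf1r, Igf1 and Igf2, where Igfbp5 overlapped Igfbp4 and Igfbp6 overlapped Igfbp3. Igfbp6 thus stood directly below Igfbp7 in old GSH-low cells and overlapped Igfbp3 in young cells.

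Mmp3 and C1s1, proteases that cut binding proteins, were highest in old GSH-low and lowest in young cells. Of 10 proteases and protease inhibitors in the list, 7 were tested. Of these, 2 rose and none fell in old GSH-low against old GSH-high cells, where 5.38% of all genes changed. In old GSH-high against young cells 4 rose and none fell, beside 28.8% of all genes changed, and in old GSH-low against young cells 3 rose and 1 fell, beside 36.8%. Stc1, among the 4 that rose in old GSH-high cells, encodes an inhibitor. The list leaves out the proteases Htra1 and Htra3, which are given below. Both of these fell in old GSH-high against young cells. Mmp3 (stromelysin, a matrix protease that can cut IGFBP3) was at 183.2 and 168.0 RPKM in old GSH-low, 60.7 and 59.3 RPKM in old GSH-high and 2.21 and 1.47 RPKM in young cells. Its 3 groups were far apart, with log2 changes of 1.53 ± 0.12 between the old fractions (adjusted p = 0.000165), 4.44 in old GSH-high against young cells (adjusted p = 2.68e-07) and 5.97 in old GSH-low against young cells (adjusted p = 2.46e-08). C1s1, a complement protease known to cut IGFBP5, was at 26.4 and 21.5 RPKM in old GSH-low, 14.6 and 14.8 RPKM in old GSH-high and 2.50 and 2.80 RPKM in young cells. It rose between the old fractions, with a log2 change of 0.66 ± 0.11 (adjusted p = 0.00804), a call that ended without old GSH-low replicate 1, old GSH-high replicate 1 or old GSH-high replicate 2 (adjusted p from 0.0597 to 0.0717). It rose in old GSH-high against young cells, with a log2 change of 2.11 (adjusted p = 4.48e-06).

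Pappa, the protease that cuts IGFBP4, was at 1.17 and 1.13 RPKM in old GSH-low, 0.796 and 0.706 RPKM in old GSH-high and 0.109 and 0.114 RPKM in young cells. Both old fractions lay above young cells, and Pappa rose in each, with adjusted p = 0.00149 for old GSH-high cells and adjusted p = 0.000144 for old GSH-low cells. The ratio of mean RPKM to young cells was 6.73 in old GSH-high and 10.3 in old GSH-low cells, and the fitted log2 changes of 0.66 and 0.95 understate it at these low levels. Between the old fractions its log2 change was 0.30 (adjusted p = 0.143). Stc1, whose product inhibits PAPP-A, was at 1.24 and 0.544 RPKM in old GSH-low, 1.88 and 1.99 RPKM in old GSH-high and 0.651 and 0.572 RPKM in young cells. It rose in old GSH-high against young cells (log2 change 0.87, adjusted p = 0.00461), the group in which Igfbp4 was also highest.

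Of 8 other binding proteins and carriers, 4 were tested. Htra1 and Htra3 encode secreted serine proteases with a domain related to IGF-binding proteins, and both fell in old GSH-high against young cells. Htra1 was at 23.5 and 23.7 RPKM in old GSH-low, 17.1 and 15.8 RPKM in old GSH-high and 26.7 and 25.6 RPKM in young cells. It rose in old GSH-low against old GSH-high cells (log2 change 0.49 ± 0.08, adjusted p = 0.00813) and fell in old GSH-high against young cells (log2 change -0.64, adjusted p = 0.000669). Its rise between the old fractions ended without old GSH-high replicate 2 or either old GSH-low library (adjusted p up to 0.121). Htra3 was at 102.2 and 114.1 RPKM in old GSH-low, 102.6 and 102.1 RPKM in old GSH-high and 159.7 and 162.9 RPKM in young cells, and fell in both old fractions against young cells. Crim1, a membrane protein with an IGF-binding protein motif, was the only 1 of the 4 that rose in both, with log2 changes of 0.45 in old GSH-high and 0.44 in old GSH-low cells, and each call ended without the first replicate of young or of its old fraction (adjusted p up to 0.152 and 0.141).

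Of the other receptors, Igf2r, which takes up and degrades IGF2, was at 20.2 and 18.6 RPKM in old GSH-low, 20.6 and 20.1 RPKM in old GSH-high and 20.05 and 28.7 RPKM in young cells, and passed the test in no comparison. Insr, the insulin receptor, rose in old GSH-low against young cells (log2 change 0.37, adjusted p = 0.0127), at 2.99 and 3.09 RPKM in old GSH-low cells and 2.20 and 2.06 RPKM in young cells. That call ended without either old GSH-low library (adjusted p up to 0.0715). Plagl1, a zinc finger factor of the imprinted gene network that can activate Igf2, fell in both old fractions against young cells, in which Igf2 rose. It was at 9.36 and 9.57 RPKM in old GSH-low, 8.17 and 9.48 RPKM in old GSH-high and 15.7 and 17.6 RPKM in young cells. H19, the imprinted RNA gene 72.6 kb from Igf2, was at 1.78 and 2.39 RPKM in old GSH-low, 1.46 and 2.52 RPKM in old GSH-high and 3.69 and 2.53 RPKM in young cells, and passed the test in no comparison.

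Most of the other IGF pathway genes, in lists chosen with earlier results of these data known, did not pass the test. Their 9 lists, which include those above and the genes downstream of the receptor, hold 103 genes, and 78 were tested. Of these, 5 rose and none fell between the old fractions (6.4% of those tested, beside 5.38% of all genes). In old GSH-high against young cells, 12 rose and 13 fell (32.1%, beside 28.8%), and in old GSH-low against young cells, 17 rose and 13 fell (38.5%, beside 36.8%). The 5 that rose between the old fractions were Mmp3, C1s1, Htra1, Socs3 and Ddit4. Leaving out 1 library at a time or changing another setting gave 2 to 8 in place of 5.

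Among 15 tested adaptors and brakes of the receptor, 2 rose and 3 fell in old GSH-high against young cells, beside 28.8% of all genes changed. In old GSH-low against young cells 3 rose and 5 fell, beside 36.8%. Socs3, a feedback inhibitor of cytokine and IGF receptor signalling, was at 164.6 and 143.3 RPKM in old GSH-low, 83.3 and 72.1 RPKM in old GSH-high and 51.1 and 47.0 RPKM in young cells. It rose between the old fractions (log2 change 0.98 ± 0.11, adjusted p = 0.000854) and had the same order of groups as Igfbp6. Grb10, an imprinted adaptor that restrains IGF1R, was at 23.4 and 22.6 RPKM in old GSH-low, 22.9 and 24.1 RPKM in old GSH-high and 35.7 and 50.2 RPKM in young cells. It fell in both old fractions against young cells, with log2 changes of -0.82 ± 0.14 in old GSH-high (adjusted p = 0.00301) and -0.85 in old GSH-low cells (adjusted p = 0.00192). Socs1 and the adaptor Sh2b1 also fell in both, with log2 changes of -0.73 and -0.56 in old GSH-high and of -0.69 and -0.43 in old GSH-low cells.

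Of 16 genes in the list named for the mTORC1 branch, 1 rose and none fell in old GSH-high against young cells, beside 28.8% of all genes changed, and 2 rose and 1 fell in old GSH-low against young cells, beside 36.8%. Rictor, which defines the other mTOR complex, mTORC2, rose in both old fractions against young cells, with log2 changes of 0.43 in old GSH-high and 0.56 in old GSH-low cells. Without old GSH-high replicate 2 its call in old GSH-high cells ended (adjusted p = 0.0552). Ddit4, an inhibitor of mTORC1, rose in old GSH-low cells, with log2 changes of 0.49 against old GSH-high (adjusted p = 0.0354) and 0.69 against young cells (adjusted p = 0.00157). The first of these calls ended with limma-voom and without old GSH-low replicate 1 or either old GSH-high library (adjusted p up to 0.243). Eif4ebp2, a repressor of translation that mTORC1 inactivates, fell in old GSH-low against young cells (log2 change -0.50, adjusted p = 0.0135), a call that ended without the first replicate of young cells or of old GSH-low cells (adjusted p = 0.0518 and 0.107).

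Of 13 tested FoxO factors and targets, 7 fell and 1 rose in old GSH-high against young cells, where 13.7% of all genes fell and 15.1% rose. Without old GSH-high replicate 1 the calls of Foxo3, Pdk4, Ccng2, Cdkn1b and Bcl6 in this comparison ended. Counting every setting that ended a call, there were 6 of 15 for Bcl6, 3 of 15 for Pdk4 and 2 of 14 for Foxo3. In old GSH-low against young cells 4 fell and 2 rose, where 18.7% of all genes fell and 18.1% rose. The fall of Ccng2 there ended with scaling by library size only and without young replicate 2 or either old GSH-low library. The median log2 change of the 13 genes was -0.39 in old GSH-high and -0.27 in old GSH-low cells against young cells. The medians over all genes were 0.00 and -0.02. Sesn1, a stress-induced inhibitor of mTORC1, fell by 0.72 on the log2 scale in old GSH-high and by 0.62 in old GSH-low cells. Fbxo32, the muscle ubiquitin ligase atrogin-1, was at 1.88 and 1.88 RPKM in old GSH-low, 1.59 and 1.76 RPKM in old GSH-high and 3.36 and 2.93 RPKM in young cells, and fell in both old fractions. Foxo6 fell in both as well, at 1.97 and 2.52 RPKM in old GSH-low, 2.48 and 1.52 RPKM in old GSH-high and 4.40 and 4.00 RPKM in young cells, and without old GSH-low replicate 1 its call in old GSH-low cells ended (adjusted p = 0.0735). Of the 5 tested genes of the growth hormone axis, which drives Igf1 in liver, 2 rose in old GSH-high against young cells, beside 15.1% of all genes. In old GSH-low against young cells 3 rose, beside 18.1%. Ghr (the growth hormone receptor) and its kinase Jak2 rose in both old fractions. Cish rose in old GSH-low cells alone (log2 change 0.31, limma adjusted p = 0.0377). That call ended under 7 of 14 other settings, among them the replicate block, the 4 libraries of the comparison alone and any old library left out. Ghr was at 10.5 and 9.40 RPKM in old GSH-low, 9.91 and 10.2 RPKM in old GSH-high and 6.40 and 7.40 RPKM in young cells, with both old fractions above young cells, while Igf1 lay below. Without old GSH-low replicate 1 the calls of Ghr (adjusted p = 0.0623) and Jak2 (adjusted p = 0.0595) in old GSH-low against young cells ended.

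**Figure D5:**
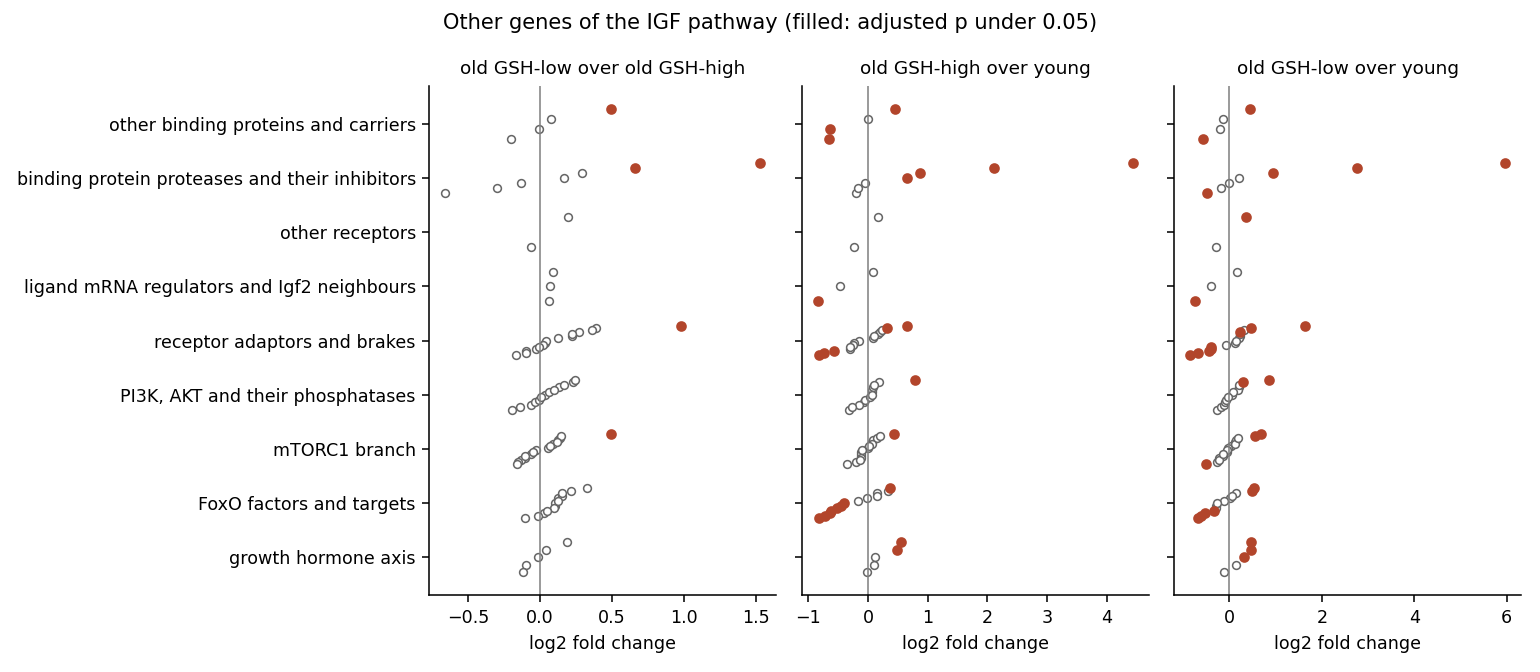
Log2 change of each tested gene of the 9 lists of other IGF pathway genes (rows) in the 3 comparisons (panels); filled points have an adjusted p under 0.05. Most points lie near 0, Mmp3 reaches 1.53, 4.44 and 5.97, and FoxO factors and targets lie mostly below 0 in the comparisons with young cells.

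Among 1199 genes with a mean of at least 5 RPKM and group means spread by at least 0.5 on the log2 scale, the 3 genes whose profiles over the 6 libraries lay closest to each changed member were looked up, as the root mean square distance between centred log2(RPKM + 1) values. For Igf1 these were Marcksl1 (0.0727), Egr2 (0.0814) and Retreg1 (0.0860). Igf2 lay closest to Efnb1 (0.0651), Igfbp4 to Rgmb (0.0669), Igfbp5 to Socs5 (0.0763) and Igfbp7 to Ephx1 (0.0563). The nearest genes to Igfbp3 were Man1a (0.103), Epas1 (0.108) and Dram1 (0.131). For Igfbp6 they were Il6 (0.200), C3 (0.210) and Eya2 (0.233), farther away than for any other member. These distances describe 6 libraries in 3 groups, where many genes share a pattern.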

How the data were processed

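RNA of 6 libraries was measured. The authors' deposited file gives RPKM for 12067 genes. Per the submitters' processing notes, edgeR, STAR, Trim Galore and featureCounts (Subread) were used on the build GRCm38 (mm10); settings and the strand of counting are not given in the sources used here. Positions came from GENCODE M21 and promoter windows from RefSeq.

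The filter kept 10609 genes that reached RPKM 1 in at least 2 libraries and removed 1458. A model of 3 group means over all 6 libraries (3 residual degrees of freedom) was fitted to log2(RPKM + 1) with limma-trend (limma 3.58.1, R 4.3.3), two-sided. A planned count model was not used, since the file holds RPKM. Whole reads were recovered from RPKM and gene length for 12058 genes (99.93%), within 0.02 reads plus a relative 3e-07, with 229 values read as replaced zeros. They gave depth and the alternatives on reads, and the steps were tested on simulated data. Python 3.11.15 drew the figures. Every column was used.

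The members and lists were chosen with earlier results of these data known. All members are named whatever their p. From each list, up to 4 changed genes in order of p, and those at 20 RPKM or more, could be named. H19, Igf2r, Foxo3, Ccng2 and Cdkn1b are given besides, chosen after their values were seen. Similar profiles are the 3 nearest genes to each changed member, given in part. The pathway calls were put through the alternatives after seeing the data. No batch is given in the labels.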

Additional observations from a re-analysis of the deposited data

Results flagged for a closer look

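Igfbp6 and Igfbp4 stood apart from the young cells by different amounts in the old GSH fractions. The test of that difference is the contrast of the old fractions, since both share the young libraries. The young cells were not split by GSH, so whether GSH fractions change differently with age cannot be read from it. Igfbp6 was above young cells by 3.33 in old GSH-low and by 2.30 in old GSH-high cells on the log2 scale, and the difference was 1.02 (limma, adjusted p = 0.00136). Igfbp4 was above young cells by 0.11 in old GSH-low and by 0.56 in old GSH-high cells, and the difference was -0.444 (limma, adjusted p = 0.0184). Igfbp6 was higher in both old GSH-low libraries than in either old GSH-high library, and Igfbp4 was lower in both. As given above, the Igfbp4 call between the old fractions ended when any 1 of the 4 old libraries was left out.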

How the results depend on the processing

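Each member's changes were refitted under 16 settings: other pseudocounts, filters and scalings, limma-voom, the 4 libraries compared alone, replicate blocks and each library left out. Of 354 refitted values, 339 kept their direction and their side of the threshold, 5 no longer passed, 7 newly passed and 3 changed sign. Those 3 were changes between the old fractions that had not passed. With 1 library left out, Igf2 ranged from -0.071 (without old GSH-low replicate 2) to 0.11, Igfbp3 from -0.59 to 0.013 (without old GSH-low replicate 2) and Igf1r from -0.014 (without old GSH-high replicate 1) to 0.071. Igfbp6 passed under every setting, from 0.93 to 1.11 between the old fractions. Igf2 against young cells was 1.55 in old GSH-high and 1.58 in old GSH-low cells with limma-voom.

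Between the old fractions, 571 genes changed; the count was 214 at a mean RPKM of at least 5, 864 in the 4 old libraries alone and 312 to 863 with 1 library left out. The members changed were 1 to 3 with 1 library left out. In old GSH-high against young cells the count was 3051, 1865 at the higher filter and 1493 to 3802 with 1 library left out, the lowest without old GSH-high replicate 1. With 1 library left out, 7 members changed each time; at the higher filter, 5 of the 6 still tested did. In old GSH-low against young cells the count was 3901, 2419 at the higher filter and 2068 to 4295 with 1 library left out, the lowest without old GSH-low replicate 1. With 1 library left out, 5 to 6 members changed; 4 of 6 did at the higher filter, and 7 of 8 with scaling by library size only or limma-voom. Scaling by library size only gave 2260 higher and 1487 lower genes there. The causes were not tested.

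Deviations of same-numbered libraries correlated at -0.142 (old GSH-high with young), -0.263 (old GSH-low with young) and 0.069 (old GSH-low with old GSH-high) over 10609 genes. With 2 libraries a group, these values cannot show whether old GSH-low and old GSH-high libraries share animals. With the replicate block, 479, 2559 and 3350 genes changed, and 2, 7 and 6 members, as without it. Chosen after seeing the data, a block with the young numbers crossed gave 3805 genes in old GSH-high and 4538 in old GSH-low against young cells, and a block over the old libraries alone gave 1067 genes and 3 members between the old fractions. Where leaving out a library leaves 1 in a group, it is assumed to vary like the others. Igf2 had the fewest reads, 247 to 899 per library.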
